A study of Mus musculus with 8 samples.

Results

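The genes described here encode the proteasome, the barrel-shaped protease that degrades ubiquitin-tagged proteins. They were chosen by symbol alone: Psm, followed by a, b, c or d and digits. The rule found 39 of the 24848 genes in the tables, spread over 16 chromosomes. RNA was sequenced from ischemic tibialis anterior muscle, a fast muscle of the lower leg, in 8 libraries. All libraries came from male mice of genotype Leprdb/db, a model of obesity and type II diabetes through loss of leptin receptor signalling, and all of these mice had hind limb ischemia (HLI) surgery. The placebo group (4 libraries) ate control chow without drug, and the praliciguat group (4 libraries) ate chow with 75 ppm praliciguat, which stimulates soluble guanylate cyclase, the enzyme that answers nitric oxide by making cGMP. The drug chow was meant to match, in peak plasma concentration, dosing by mouth at 10 mg/kg/day. Diets began 3 days before surgery and ran for 31 days, and muscle was taken on day 28 after surgery. No muscle without surgery and no lean mouse was analysed here, so the comparison is between diets within ischemic, leptin-receptor-deficient muscle. Neither the age of the mice nor whether each library is a separate animal is stated in the labels; the p-values therefore reflect the variation among these 8 libraries, which may be technical.

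Proteins marked for removal by chains of ubiquitin are unfolded, stripped of ubiquitin and cut into short peptides by the proteasome. Its core particle is made of outer rings of alpha subunits, which form the gate, and inner rings of beta subunits, of which Psmb5, Psmb6 and Psmb7 carry the chymotrypsin-like, caspase-like and trypsin-like active sites. The regulatory particle caps the core: a base of ATPases (Psmc genes) and scaffold subunits unfolds and feeds the substrate, and a lid (most Psmd genes) removes the ubiquitin. Under interferon the catalytic subunits can be replaced by Psmb8 (for Psmb5), Psmb9 (for Psmb6) and Psmb10 (for Psmb7), which gives the immunoproteasome, a source of peptides for MHC class I and abundant in leukocytes. In skeletal muscle the ubiquitin-proteasome system is the main route by which myofibrillar protein is lost in atrophy. RNA levels report neither the amount of assembled proteasome nor its activity, which cGMP-dependent protein kinase is known to raise in cells.

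By role, the 39 genes were 7 alpha-ring subunits (Psma1 to Psma7), 4 beta-ring subunits without an active site (Psmb1 to Psmb4), 3 constitutive catalytic subunits, 3 immunoproteasome subunits, 6 ATPases of the base, 3 other base subunits (Psmd1 and Psmd2, the large scaffold proteins, and Psmd4, a ubiquitin receptor), and 8 lid subunits, among them the deubiquitinase Psmd14. A further 3 symbols name chaperones that help to build the base and leave before the complex is finished (Psmd5, Psmd9 and Psmd10). The remaining 2 are tissue-restricted core subunits, Psma8 of testis and Psmb11 of thymus.

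The promoter sequences that bear on the comparison of immunoproteasome with constitutive subunits were read from RefSeq on GRCm38.p6. Psmb9 (chr17:34182030-34187330) and Tap1 (chr17:34187556-34197225), which encodes a subunit of the peptide transporter of MHC class I loading, are transcribed away from each other out of a shared stretch of 225 bases. Psmb8 (chr17:34198195-34201454) lies just beyond Tap1 in the same MHC region. These sequences are shown because the members with the largest differences between diets lie at this locus, and Psmb5 is shown as the constitutive counterpart of Psmb8. The Psmb9 and Tap1 stretch is chr17:34187331-34187555, plus strand. The 250 bases before the annotated start are chr17:34197945-34198194, plus strand, for Psmb8 and chr14:54617996-54618245, minus strand, for Psmb5. Capitals mark matches to the motifs named in the next paragraph.
Psmb9-Tap1: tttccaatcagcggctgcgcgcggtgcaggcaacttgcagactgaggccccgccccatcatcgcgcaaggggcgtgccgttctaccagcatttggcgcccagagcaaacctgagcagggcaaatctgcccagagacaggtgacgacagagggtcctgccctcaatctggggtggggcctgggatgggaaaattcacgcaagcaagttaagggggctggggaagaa
Psmb8: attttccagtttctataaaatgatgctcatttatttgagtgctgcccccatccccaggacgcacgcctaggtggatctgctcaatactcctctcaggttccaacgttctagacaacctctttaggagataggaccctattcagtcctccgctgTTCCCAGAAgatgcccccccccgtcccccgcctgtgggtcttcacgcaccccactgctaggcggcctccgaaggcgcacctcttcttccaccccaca
Psmb5: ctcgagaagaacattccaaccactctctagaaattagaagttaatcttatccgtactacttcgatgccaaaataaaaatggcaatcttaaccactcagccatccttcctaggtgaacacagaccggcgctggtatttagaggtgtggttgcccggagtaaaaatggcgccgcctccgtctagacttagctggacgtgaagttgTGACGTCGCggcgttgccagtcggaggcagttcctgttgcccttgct

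In windows of 300 bases (250 before and 50 after a start), RefSeq held promoters for 32 of the 39 genes, in 34 windows. Both strands were searched. TGACNNNGC, the core of the antioxidant response element through which NFE2L1, the activator of proteasome genes, binds, was in 5 of 34 windows (14.7%; Psmb5, Psmb6, Psmc6, Psmd9 and Psmd12) and in 12.4% of all 32851 windows. An interferon response motif, GAAA followed by 2 bases of any kind and GAAA, was in 3 of 34 (8.82%; Psmb3, Psmd4 and Psmd9) and in 3.44% of all windows. TTCNNNGAA, the core of the interferon-gamma activated site, was in 2 of 34 (5.88%; Psmb8 and Psmd2) and in 8.30% of all windows. No proteasome window held both interferon motifs. In the printed stretches the capitals begin 97 bases before the start of Psmb8 (interferon-gamma activated site core) and 47 bases before that of Psmb5 (antioxidant response element core). The stretch between Psmb9 and Tap1 held none of these letters. These matches describe letters in a window and are not shown to be binding sites.

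Total expected counts ranged from 21099764 to 31896205 per library. Proteasome genes took between 0.346% and 0.391% of them. As a check of the tissue label, 10 skeletal muscle markers had mean levels of 2485 to 45920 TPM (a read share scaled by gene length, which allows genes to be compared). Of all 13569 genes that passed the count filter, 0 (0%) differed between diets at an adjusted p under 0.05 in edgeR's quasi-likelihood test, against 778 (5.73%) at an unadjusted p under 0.05. DESeq2 called 130 genes and limma-voom 0. Praliciguat replicate 3 stood apart in its fibroblast and leukocyte markers. CPM is a gene's count relative to the scaled library size, not per length. Summed fibroblast markers were at 5798 CPM in this library, against 730 to 2713 CPM in the other 7 libraries. Results that turn on this library are given with and without it. Other markers varied beyond it: summed adipocyte markers were 898 CPM in praliciguat replicate 3 and 829 CPM in praliciguat replicate 4. They were 656 CPM in placebo replicate 3 and 158 to 422 CPM in the remaining libraries. The median log2 fold change was 1.08 for adipocyte markers and -0.34 for endothelial markers. In whole tissue, fewer cells of a type and less RNA per cell cannot be told apart.

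The constitutive subunits were the abundant tier of the family. Mean levels over the 8 libraries lay between 48.8 and 427 TPM for the 31 subunits of the core and regulatory particles, with a median of 189 TPM for the 14 core and 145 TPM for the 17 regulatory subunits. Psmb7, the trypsin-like catalytic subunit, was highest of all at 427 ± 22.2 TPM (SD, n = 8), and the alpha-ring subunit Psma5 was the lowest of the constitutive set at 48.8 ± 3.96 TPM. The spread within a ring was wide although each complex holds the same number of copies of each subunit: the alpha ring ran from Psma5 to Psma6 (265 TPM), a ratio of 5.42. The catalytic subunits ran from Psmb5 (148 TPM) to Psmb7, a ratio of 2.89. The other beta subunits ran from Psmb3 (165 TPM) to Psmb4 (239 TPM). In the base, the ATPases ran from Psmc4 (128 TPM) to Psmc3 (271 TPM), a ratio of 2.11, and the other subunits from Psmd1 (145 TPM) to Psmd4 (212 TPM). In the lid, levels ran from Psmd13 (83.5 TPM) to Psmd8 (209 TPM). Neighbours in this order often differed by less than their spread, such as Psmc5 at 212 ± 11.6 and Psmd4 at 212 ± 20.7 TPM. The 5 highest genes (Psmb7, Psmc3, Psma6, Psmb6 and Psmb4) held the same places in the means of each group.

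Immunoproteasome subunits and base chaperones formed a lower tier. Psmb10 averaged 15.6 ± 3.35 TPM, Psmb8 12.2 ± 4.33 TPM and Psmb9 5.54 ± 2.08 TPM. Psmd5 averaged 18.5 ± 3.02 TPM, Psmd9 14.5 ± 1.61 TPM and Psmd10 11.7 ± 1.95 TPM. No gene of this tier reached the lowest constitutive subunit in its mean. The 2 tissue-restricted genes did not pass the count filter. Psma8 had 0 to 7 counts per library (up to 0.30 TPM). Psmb11 had 0 counts in every library, which allows up to 0.0941 CPM in the deepest library and 0.142 CPM in the shallowest (3 counts, counting error only).

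**Figure D1:**
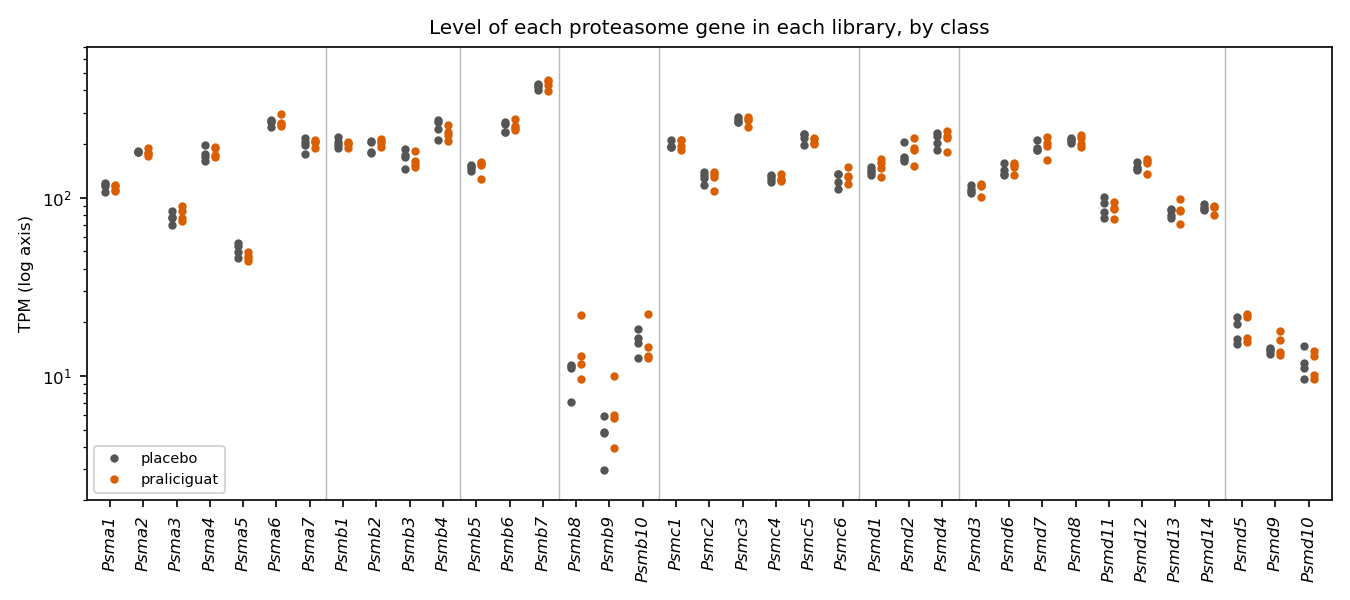
Level of each of the 37 proteasome genes that passed the count filter, in TPM on a log axis, with 1 point per library (grey, placebo; orange, praliciguat) and grey lines between classes in the order alpha ring, other beta subunits, catalytic subunits, immunoproteasome, base ATPases, other base subunits, lid and base chaperones. The 31 constitutive subunits have means between 48.8 and 427 TPM, and Psmb8, Psmb9 and Psmb10 have means between 5.54 and 15.6 TPM.

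No proteasome gene passed the test between diets. Of the 37 members that passed the filter, 0 had an adjusted p under 0.05 (smallest 0.956, Psmb8) in edgeR's quasi-likelihood test, and DESeq2 and limma-voom also called 0. At an unadjusted p under 0.05 there were again 0 of 37, beside 1.95% of all genes tested that were higher and 3.78% that were lower with praliciguat at that threshold. In 0 of 37 members did the 4 values of a group lie wholly above those of the other, against 3.86% of all genes. Fold changes above 0 (higher with praliciguat) were found for 33 of 37 members and for 55.2% of all genes, with medians of 0.07 and 0.02 on the log2 scale. That split depended on the scale: on log2(TPM + 1), 22 of 37 members lay above 0 (59.5%), against 43.1% of all genes. Members of a complex share their libraries and are not independent, so these counts are a description.

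For the constitutive subunits the data bound the difference closely. The log2 fold changes of the 31 core and regulatory subunits lay between -0.09 and 0.13, with standard errors of 0.08 to 0.15. Their 95% intervals stayed between 0.789-fold and 1.39-fold, so larger changes lie outside the interval of each subunit. The intervals were taken gene by gene, without adjustment for the number of subunits. Their variation over the 8 libraries had a median coefficient of variation of 9.67% (5.22% for Psma1 to 15.7% for Psmd2). The medians were 16.5% for all genes tested and 33.0% for the immunoproteasome subunits. These sets differ in level: constitutive subunits had 709 to 9285 counts per library and immunoproteasome subunits 28 to 443. Genes matched in level were not compared. The immunoproteasome median includes praliciguat replicate 3, the highest library for Psmb8, Psmb9 and Psmb10, and was not recomputed without it. Psmb8 had 12.2 CPM there against 4.06 to 7.92 CPM in the other libraries, and Psmb9 3.32 against 1.02 to 2.24 CPM.

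In the alpha ring, 6 of 7 fold changes lay above 0 (median 0.05 on the log2 scale). Psma5, the exception and the member with the lowest p among those below 0, had 32.2, 30.0, 25.3 and 30.2 CPM with placebo and 27.8, 29.3, 24.5 and 29.2 CPM with praliciguat. The groups overlapped, and replicate 3 was the lowest library of each group. The log2 fold change was -0.09 ± 0.10 (SE), with an adjusted p of 0.984 by edgeR's quasi-likelihood test. Psma3 had the largest positive value of the ring, a log2 fold change of 0.11 ± 0.11.

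Among the beta subunits without an active site, 2 of 4 fold changes lay above 0 (median -0.01). Psmb4 had 117, 119, 86.5 and 102 CPM with placebo and 94.7, 107, 92.0 and 111 CPM with praliciguat, a log2 fold change of -0.07 ± 0.12. Psmb3 had 58.0, 54.4, 42.6 and 52.2 CPM with placebo and 48.0, 52.9, 45.5 and 56.8 CPM with praliciguat, a log2 fold change of -0.03 ± 0.12. For each of these, placebo replicate 3 was the lowest of the 8 libraries, and the highest was a placebo library too. Psmb2, at 0.12 ± 0.11, was the highest of this set.

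The 3 constitutive catalytic subunits had fold changes above 0 and smaller than their standard errors. Psmb5, the chymotrypsin-like subunit and the main target of proteasome inhibitor drugs, had 58.8, 60.5, 51.7 and 55.4 CPM with placebo and 51.9, 62.5, 57.7 and 62.1 CPM with praliciguat, a log2 fold change of 0.05 ± 0.09. Psmb6, the caspase-like subunit, had 123, 133, 107 and 110 CPM with placebo and 124, 123, 115 and 134 CPM with praliciguat, a log2 fold change of 0.07 ± 0.10. Psmb7, the trypsin-like subunit, had 185, 197, 169 and 187 CPM with placebo and 199, 216, 167 and 202 CPM with praliciguat, a log2 fold change of 0.09 ± 0.10. In Psmb7 the 3 praliciguat libraries other than replicate 3 lay above every placebo library, while replicate 3 was the lowest of all 8. In Psmb5 and Psmb6 the groups interleaved.

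In the regulatory particle, 16 of 17 fold changes lay above 0 (median 0.07). The base ATPases were at a median of 0.03 (5 of 6 above 0), from Psmc5 at -0.02 ± 0.10 to Psmc6 at 0.11 ± 0.11. Among the scaffold and receptor subunits of the base, Psmd2 was at 0.13 ± 0.15, Psmd1 at 0.13 ± 0.12 and Psmd4 at 0.07 ± 0.14; whether they differ from the ATPases was not tested. The 8 lid subunits were all above 0 (median 0.07), from Psmd11 at 0.01 ± 0.12 to Psmd12 at 0.10 ± 0.11, with the deubiquitinase Psmd14 at 0.02 ± 0.09. The groups overlapped for each of the 17 subunits.

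**Figure D2:**
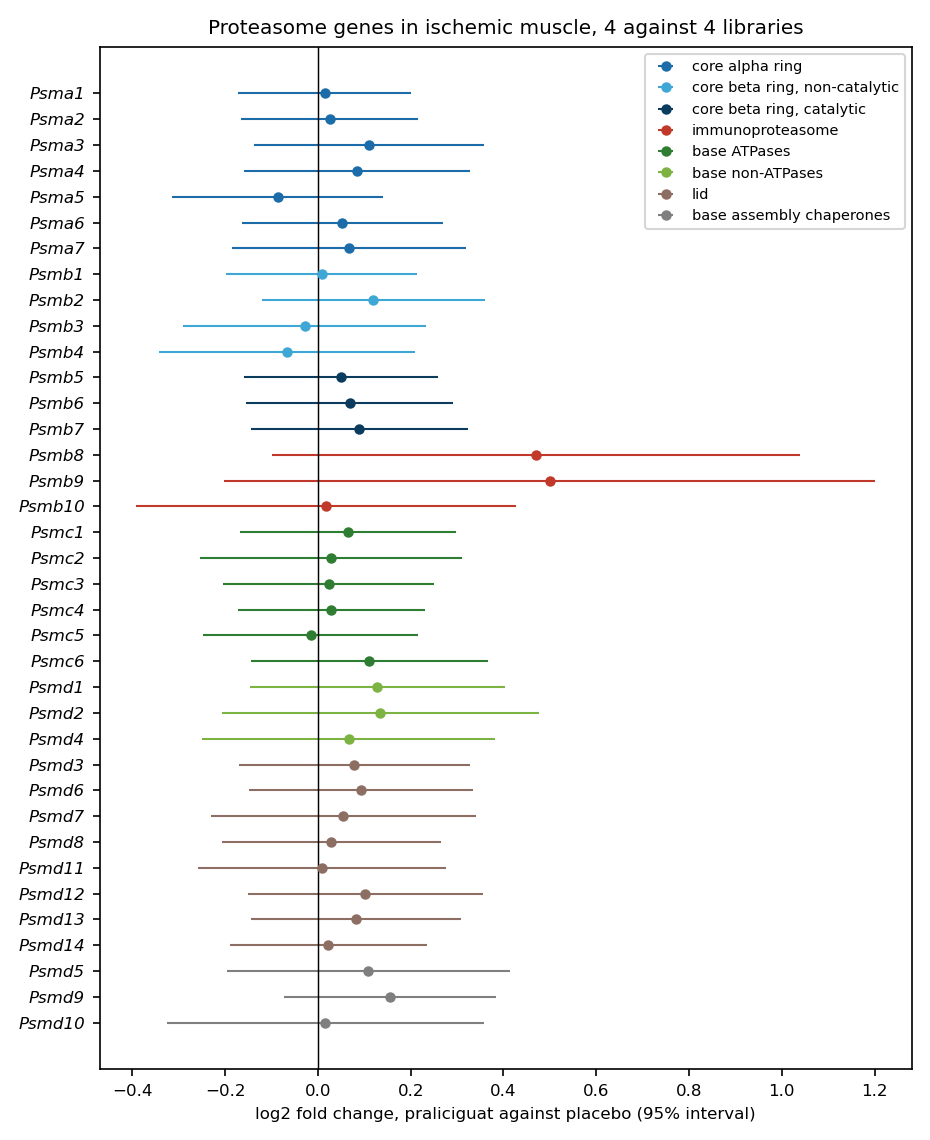
Log2 fold change (praliciguat against placebo, points) with its 95% interval (bars) for the 37 proteasome genes that passed the count filter, coloured by class. Every interval crosses 0; the 31 constitutive subunits lie between -0.09 and 0.13, and Psmb8 (0.47) and Psmb9 (0.50) have the highest values and the widest intervals.

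The balance of regulatory to core particle differed less between diets than among libraries. The mean level of a regulatory subunit divided by that of a core subunit was 0.772, 0.803, 0.840 and 0.849 in the placebo libraries and 0.856, 0.873, 0.769 and 0.787 in the praliciguat libraries. The means were 0.816 ± 0.035 and 0.821 ± 0.051 (SD, n = 4). Without praliciguat replicate 3 the praliciguat mean was 0.839. The range within the praliciguat group, which holds the highest and the lowest ratio of all 8 libraries, was larger than the difference between groups.

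Subunits of a particle often shared their lowest library. Praliciguat replicate 3 was the lowest of the 8 libraries for 14 of the 17 regulatory subunits, and praliciguat replicate 2 was the highest for 10 of them. Placebo replicate 3 was the lowest for 10 of the 14 core subunits, and praliciguat replicate 3 for the other 4. These 2 low libraries had the 2 highest summed fibroblast markers (2713 CPM in placebo replicate 3 and 5798 CPM in praliciguat replicate 3), the 2 highest summed leukocyte markers (301 and 875 CPM) and the 2 lowest sums of skeletal muscle markers (162549 and 169895 CPM, against 176623 to 230144 CPM in the others). The part of these cell-type differences in the subunit levels was not tested. On the TPM scale praliciguat replicate 3 was still the lowest library for 13 of 17 regulatory subunits, and placebo replicate 3 for 7 of 14 core subunits.

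**Figure D3:**
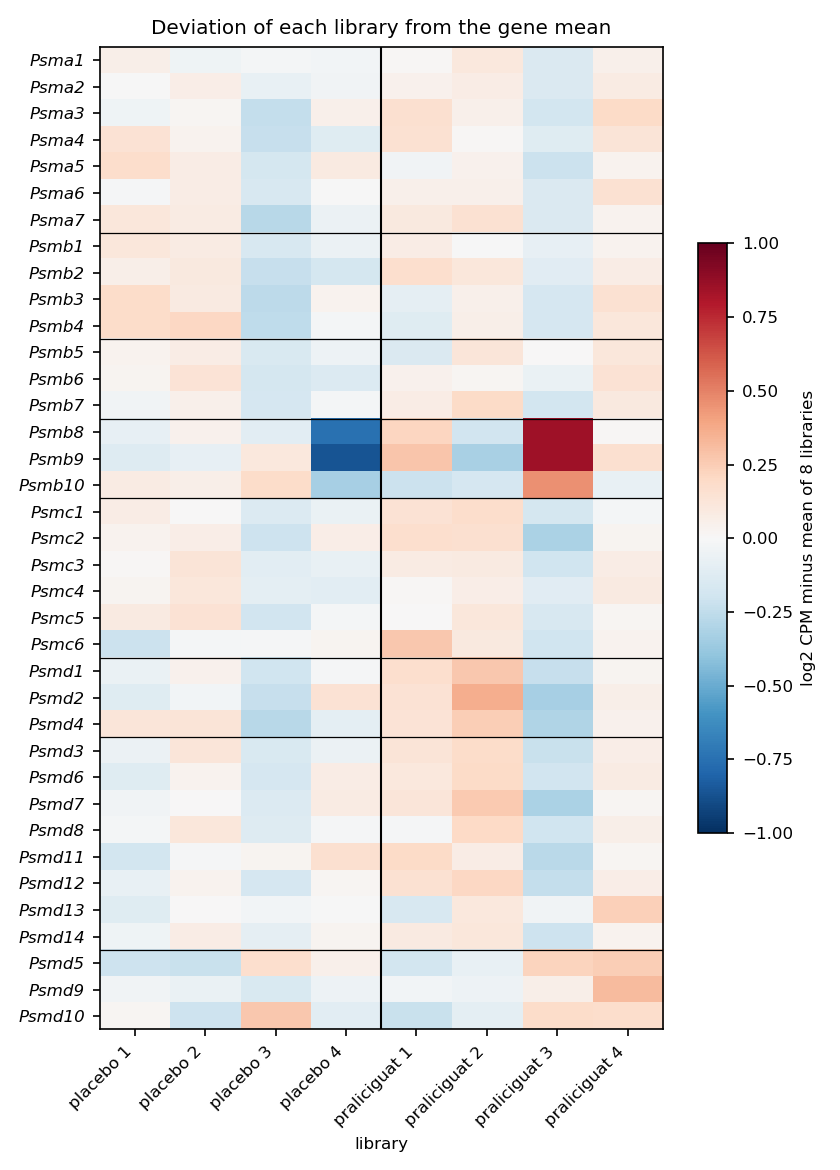
Deviation of each library (columns, 4 placebo then 4 praliciguat) from the mean of the gene over all 8 libraries, in log2 CPM, for the 37 proteasome genes that passed the count filter (rows, by class, with lines between classes). Most constitutive subunits are low (blue) in placebo 3 and praliciguat 3, while Psmb8, Psmb9 and Psmb10 are high (red) in praliciguat 3 and low in placebo 4.

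The median log2 fold change of the 37 members depended on single libraries. It went from 0.07 to 0.11 without praliciguat replicate 3 (33 above 0), to 0.02 without placebo replicate 3 (25 above 0) and to 0.03 without praliciguat replicate 2 (25 above 0). Without praliciguat replicate 3 the groups did not overlap for 5 members, Psma3, Psmb7, Psmc6, Psmd6 and Psmd12, beside 9.55% of all genes tested in that setting. At an unadjusted p under 0.05 there were 0 members in that setting, beside 1263 of all 13651 genes tested. By class, leaving out 1 library at a time gave medians of 0.00 to 0.11 for the alpha ring, -0.08 to 0.05 for the beta subunits without an active site, 0.02 to 0.12 for the catalytic subunits, -0.01 to 0.11 for the base ATPases, 0.03 to 0.22 for the other base subunits, 0.01 to 0.14 for the lid and 0.04 to 0.18 for the base chaperones. The lowest regulatory values came without placebo replicate 3 (base ATPases, -0.01) or praliciguat replicate 2 (other base subunits and lid), and the highest without praliciguat replicate 3. On log2(TPM + 1) the median of the base ATPases was also -0.01.

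Sample titles end in a number, and the numbers form a low and a high series with replicates 1 and 2 of each group in the low and replicates 3 and 4 in the high; what the series stand for is not stated. Within the low series the lid subunits had a median difference of 0.16 in log2 CPM (8 of 8 above 0) and within the high series of -0.01 (3 of 8). The beta subunits without an active site had -0.11 (1 of 4 above 0) in the low series and 0.11 (4 of 4) in the high. Over all 37 members the medians were 0.05 and 0.06. Whether the series differ was not tested; each holds 2 libraries a group.

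Psmb8 and Psmb9 had the largest fold changes of the members tested, and Psmb10 was close to 0; the values of the groups overlapped for each of the 3 genes. Psmb8 had 6.46, 7.02, 6.35 and 4.06 CPM with placebo and 7.92, 5.99, 12.2 and 6.89 CPM with praliciguat. Praliciguat replicates 1 and 3 lay above every placebo library, placebo replicate 4 was the lowest, and the groups overlapped. Its log2 fold change was 0.47 ± 0.25 (95% interval 0.933-fold to 2.06-fold), with an unadjusted p of 0.0952 and an adjusted p of 0.956 by edgeR's quasi-likelihood test.

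Psmb9 had 1.69, 1.75, 1.99 and 1.02 CPM with placebo and 2.24, 1.48, 3.32 and 2.06 CPM with praliciguat. Here 3 of the 4 praliciguat libraries lay above every placebo library, and praliciguat replicate 2 lay among them. The log2 fold change of Psmb9 was 0.50 ± 0.31 (95% interval 0.869-fold to 2.30-fold), with an adjusted p of 0.984 by the same edgeR test. Psmb10 (chr8:105935728-105938392), which lies outside the MHC region, had 9.98, 9.80, 10.7 and 7.47 CPM with placebo and 8.12, 8.40, 12.9 and 8.94 CPM with praliciguat. Only praliciguat replicate 3 exceeded the placebo range, and the log2 fold change was 0.02 ± 0.18.

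These differences rested largely on praliciguat replicate 3, the highest library for each of the 3 genes. Without it the log2 fold change of Psmb8 was 0.22 ± 0.20, that of Psmb9 was 0.26 ± 0.29 and that of Psmb10 was -0.16 ± 0.15. Within the low series of title numbers the difference in log2 CPM was 0.03 for Psmb8, 0.08 for Psmb9 and -0.26 for Psmb10. Within the high series, which holds praliciguat replicate 3 and placebo replicate 4, it was 0.85, 0.88 and 0.27. Leaving out praliciguat replicate 2 instead gave Psmb8 an unadjusted p of 0.0436 in edgeR's test; the smallest adjusted p of any member was then 0.748.

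Leukocyte markers moved in part with these genes. The sum of 15 leukocyte markers was 155, 113, 301 and 135 CPM with placebo and 137, 85.0, 875 and 194 CPM with praliciguat. All 13 of these markers that passed the filter lay above 0 with all libraries (median log2 fold change 0.77) and 0 of 13 lay above 0 without praliciguat replicate 3 (median -0.34). The markers of B and T cells, Cd79a and Cd3e, were at or below 0.67 CPM in every library. Without that library the immunoproteasome genes were at 0.22 ± 0.20 (Psmb8), 0.26 ± 0.29 (Psmb9) and -0.16 ± 0.15 (Psmb10); the part of leukocytes in these values was not tested. Placebo replicate 3, second in leukocyte markers, was the highest placebo library for Psmb9 and Psmb10 and lay between the other placebo libraries for Psmb8.

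Relative to the constitutive subunit that it replaces, each immunoproteasome subunit was a small part of the RNA. Psmb8 made up 6.79%, 7.12%, 7.52% and 4.64% of Psmb8 plus Psmb5 (TPM) with placebo and 9.20%, 5.96%, 12.3% and 6.84% with praliciguat. Psmb9 made up 1.84%, 1.77%, 2.49% and 1.25% of Psmb9 plus Psmb6 with placebo and 2.40%, 1.62%, 3.79% and 2.06% with praliciguat. Psmb10 made up 3.77%, 3.47%, 4.39% and 2.81% of Psmb10 plus Psmb7 with placebo and 2.87%, 2.73%, 5.31% and 3.10% with praliciguat. The groups overlapped for each share, and praliciguat replicate 3 was the highest library each time.

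Taking the 3 immunoproteasome genes as a share of all 6 catalytic genes, the placebo mean was 3.62% ± 0.70 and the praliciguat mean 4.15% ± 1.47 (SD, n = 4). Without praliciguat replicate 3 the praliciguat mean was 3.43%, so the direction turned for this pooled share. For the single pairs without that library, the Psmb8 share was 7.33% with praliciguat (placebo 6.52%) and the Psmb9 share 2.03% (1.84%). The Psmb10 share was 2.90% with praliciguat (placebo 3.61%). The pooled share was lowest in placebo replicate 4 (2.70%) and highest in praliciguat replicate 3 (6.30%). In every library nearly all catalytic RNA was thus of the constitutive subunits.

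**Figure D4:**
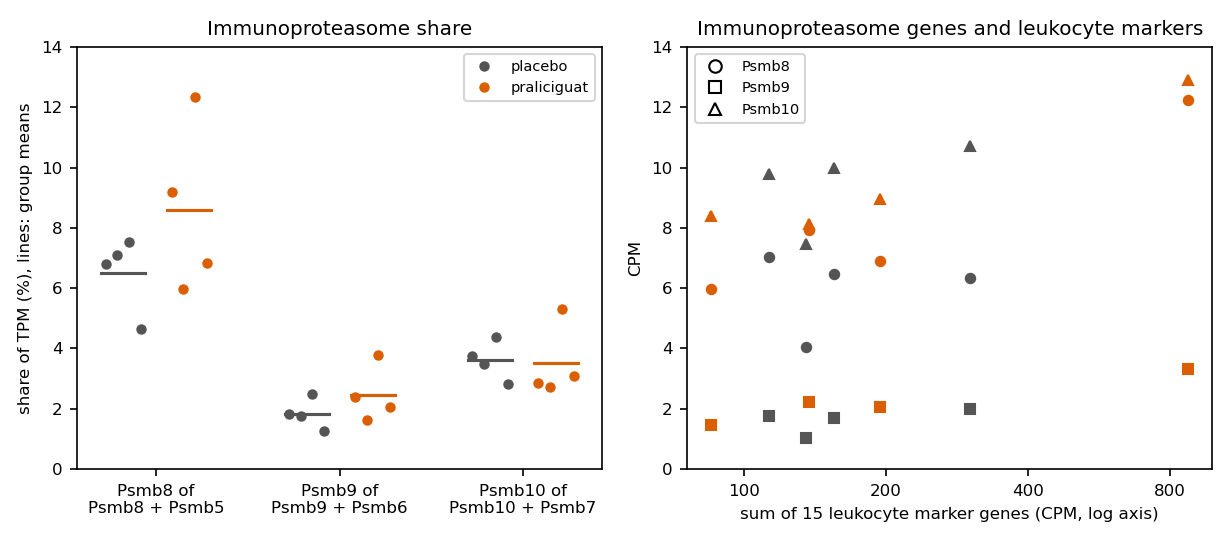
Left, share of each immunoproteasome subunit in the sum with the constitutive subunit that it replaces (% of TPM), with 1 point per library and lines at the group means (grey, placebo; orange, praliciguat). Right, CPM of Psmb8 (circles), Psmb9 (squares) and Psmb10 (triangles) in each library against the sum of 15 leukocyte markers (CPM, log axis); praliciguat replicate 3, at 875 CPM of markers, holds the highest value of each gene.

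The neighbours and partners of the immunoproteasome in peptide presentation were described by a list of 8 genes. Of these, 7 had fold changes above 0 (median 0.23), beside 55.2% of all genes tested. In edgeR's test 1 of 8 had an unadjusted p under 0.05, beside 5.73% of all genes. Without praliciguat replicate 3 each log2 fold change of the list was lower. They then ran from -0.08 to 0.61, against -0.01 to 0.77 with all libraries. Tap1, which shares the printed stretch with Psmb9, had 4.41, 4.32, 4.87 and 2.83 CPM with placebo and 9.77, 4.43, 8.89 and 4.58 CPM with praliciguat. Praliciguat replicates 1 and 3 stood above the other 6 libraries. Its log2 fold change was 0.75 ± 0.30 (unadjusted p 0.0338, adjusted p 0.778 by edgeR's quasi-likelihood test) and 0.61 ± 0.31 without praliciguat replicate 3. Nlrc5, the transactivator of MHC class I genes, lay between 2.45 and 5.72 CPM with placebo and had 9.02, 4.31, 9.39 and 4.19 CPM with praliciguat. The log2 fold change of Nlrc5 was 0.77 ± 0.39, and 0.57 ± 0.39 without praliciguat replicate 3. The same 2 praliciguat libraries were the highest for Tap1, Nlrc5, Psmb8 and Psmb9, and praliciguat replicate 1 had 137 CPM of leukocyte markers.

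The chaperones that assemble the base had fold changes above 0 for 3 of 3 (median 0.11). Psmd9, the member of lowest p among those above 0 after Psmb8 and Psmb9, had 19.1, 18.7, 17.6 and 18.9 CPM with placebo and 19.2, 18.9, 20.4 and 24.4 CPM with praliciguat. Only praliciguat replicate 2 lay within the placebo range. The log2 fold change was 0.16 ± 0.10, with an unadjusted p of 0.157 and an adjusted p of 0.984 by edgeR's test. Psmd5 was at 0.11 ± 0.14 and Psmd10, known as the oncoprotein gankyrin, at 0.02 ± 0.15. In praliciguat replicate 3, where most regulatory subunits were lowest, Psmd5 stood at 22.0 CPM, above its placebo mean of 18.3 CPM.

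Other gates of the core were measured beside the regulatory particle. Psme1 and Psme2 form the interferon-inducible activator ring, Psme3 and Psme4 form nuclear activators, and Psmf1 is an inhibitor. All 5 had fold changes above 0 (median 0.15), beside 55.2% of all genes tested. In edgeR's test 1 of 5 had an unadjusted p under 0.05, beside 5.73% of all genes. Psme1 had 38.8, 40.3, 37.4 and 32.8 CPM with placebo and 42.5, 39.1, 50.4 and 43.7 CPM with praliciguat. All praliciguat libraries except replicate 2 lay above the placebo range. The log2 fold change was 0.24 ± 0.10 (unadjusted p 0.0487, adjusted p 0.862 by edgeR's quasi-likelihood test) and 0.16 ± 0.10 without praliciguat replicate 3. Psme2, its partner, was at 0.12 ± 0.10 and Psmf1 at 0.15 ± 0.10.

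Of the chaperones that assemble the core, 2 of 5 had fold changes above 0, and none had an unadjusted p under 0.05. Pomp, which matures the beta ring, had 75.9, 73.7, 70.0 and 65.9 CPM with placebo and 61.2, 67.6, 68.5 and 79.6 CPM with praliciguat, so that the lowest and the highest library were both on praliciguat. For Pomp the log2 fold change was -0.04 ± 0.10. Psmg4 was at 0.18 ± 0.19 and Psmg1 at -0.08 ± 0.15. Of the receptors, shuttle factors and deubiquitinases that work on the particle, 8 of 9 lay above 0 (median 0.07), with the shuttles Ubqln1 at 0.15 ± 0.12 and Ubqln2 at 0.17 ± 0.15, and none had an unadjusted p under 0.05.

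The factors that switch on proteasome genes had fold changes of either sign. Nfe2l1, the transcription factor that induces the subunits when proteasome capacity is short, had 843, 1068, 1123 and 1140 CPM with placebo and 828, 1066, 689 and 721 CPM with praliciguat. The 2 lowest libraries were praliciguat replicates 3 and 4, and the groups overlapped. The log2 fold change of Nfe2l1 was -0.34 ± 0.16 (unadjusted p 0.0681, adjusted p 0.918 by edgeR's quasi-likelihood test), with -0.01 in the low and -0.68 in the high series of title numbers. Without praliciguat replicate 3 the log2 fold change of Nfe2l1 was -0.25 ± 0.16. Ddi2, the protease that cuts NFE2L1 into its active form, had 16.5, 21.6, 14.1 and 24.8 CPM with placebo and 27.0, 32.4, 12.3 and 39.3 CPM with praliciguat, a log2 fold change of 0.52 ± 0.33. Every praliciguat library except replicate 3 exceeded the placebo range for Ddi2. The expected counts of Ddi2 were fractional in every library, so its reads are less certain. Of this list of 6 genes 5 passed the filter, 3 of them above 0, with 0 at an unadjusted p under 0.05, and Nfe2l3 was left out as low.

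Upstream of the proteasome, the muscle ubiquitin ligases had 2 of 5 fold changes above 0 (median -0.12), and 0 of 5 had an unadjusted p under 0.05 in edgeR's quasi-likelihood test. Trim63 (MuRF1), the ligase of thick-filament proteins, had 278, 267, 391 and 334 CPM with placebo and 338, 386, 173 and 268 CPM with praliciguat, a log2 fold change of -0.13 ± 0.24. Fbxo32 (atrogin-1) had 432, 305, 293 and 424 CPM with placebo and 436, 502, 137 and 228 CPM with praliciguat, a log2 fold change of -0.16 ± 0.38. In each, praliciguat replicate 3 was the lowest of the 8 libraries; without it the log2 fold change was 0.06 for Trim63 and 0.10 for Fbxo32. Fbxo21 was at 0.19 ± 0.09 (unadjusted p 0.0684, adjusted p 0.920 by the same edgeR test) and Fbxo30 at -0.12 ± 0.11.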

How the data were processed

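Per the labels' protocols, RNA was isolated with Tri Reagent and libraries were made with a KAPA stranded mRNA kit. Per the submitters' processing notes, the tools were RSEM 1.2.28, STAR 2.5.3a, Trimmomatic and FastQC, and the genome build was mm10. Whether counting used strand is not stated in the labels. The deposited tables hold, per the file headers, RSEM's expected counts for each gene (its model splits reads that match several genes) and the length-scaled TPM and FPKM values. TPM served for levels between genes; deposited FPKM values served for an alternative to the shares.

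Expected counts were rounded and tested on all genes with edgeR 4.0.16 in R 4.3.3 (TMM, filterByExpr, robust quasi-likelihood F test, Benjamini-Hochberg over 13569 genes, threshold 0.05), with the diet group as the single term and 95% intervals from the log2 fold change and its standard error. The script was tested on simulated data. CPM is relative to the TMM-scaled library size. Alternatives were DESeq2 1.42.0, limma 3.58.1, other scalings and filters, log2(TPM + 1) and log2(TPM + 0.1), the series of title numbers as a block, and leaving out each library. Replicates were numbered in accession order. Libraries of a group differed beyond sampling noise, so none was counted as a duplicate. Floors from 3 counts cover counting error only.

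The members and lists were chosen with earlier results of these data known. By the naming rule, Psmb5 to Psmb10, the 3 members of lowest p in each direction and members below the count filter are given by library, the highest and lowest TPM of each class by mean, and of each other list the 2 genes of lowest p, with Nfe2l1, Psme1, Psme2, Pomp, Trim63 and Fbxo32 always named. A list of genes upstream of the proteasome is not reported here. Of the members, 5 overlap another gene that has counts (Psma3, Psma4, Psmb5, Psmd1 and Psmd10), so their reads are less certain, and Psmb5 alone had counts that were not whole (tolerance 0.001).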

Additional observations from a re-analysis of the deposited data

Results flagged for a closer look

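Within a group of 4 libraries, a value was flagged when its gap to the nearest library exceeded Dixon's critical share of the range. Flagged values stayed in the fits and means. Of 122 groups examined, 5 met this; chance gives about 1 in 20. Psmc2, an ATPase of the base, had 101 CPM in placebo replicate 3 against 119, 122 and 122 CPM in the other placebo libraries (ratio 0.889). Psmc3, another ATPase, had 194 CPM in praliciguat replicate 3 against 235, 236 and 233 CPM (ratio 0.941). The share of Psmb10 in Psmb10 plus Psmb7 was 5.31% in praliciguat replicate 3 against 2.87%, 2.73% and 3.10% (ratio 0.859). Psmg4, a core assembly chaperone, had 4.59 CPM in praliciguat replicate 1 against 3.38, 3.50 and 3.51 CPM (ratio 0.891). Ubqln1, a ubiquitin shuttle, had 109 CPM in praliciguat replicate 4 against 97.7, 99.6 and 98.0 CPM (ratio 0.832).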

How the results depend on the processing

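No setting called a member at an adjusted p under 0.05, although DESeq2 called 130 genes of all (15 higher, 115 lower) where edgeR called 0. Leaving out each library gave 0 to 1 members at an unadjusted p under 0.05. The 1 was Psmb8 without praliciguat replicate 2, where 894 of all 13769 genes tested were under that threshold. The same settings gave 0 to 5 members whose groups did not overlap and 25 to 34 above 0. The 5 were Psma3, Psmb7, Psmc6, Psmd6 and Psmd12 without praliciguat replicate 3; without praliciguat replicate 2 they were Psmb9 and Psmd9 (6.49% of all genes did not overlap there), without placebo replicate 1 Psmd9 (5.35%), and without placebo replicate 3 Psma5 (7.01%). The sign turned for Psmb10 on log2(TPM + 1) at -0.034 and on log2(TPM + 0.1) at -0.037, and when a library was left out for Psmb10 (-0.16 to 0.090), Psmb3 (-0.12 to 0.036), Pomp (-0.12 to 0.011), Trim63 (-0.29 to 0.061) and Fbxo32 (-0.44 to 0.098); the cause was not tested. Members above 0 numbered 33 under DESeq2's size factors, 32 under upper quartile scaling and 22 on each TPM scale. With the series of title numbers as a block, edgeR called 3 genes, 0 of them members, and 33 members lay above 0. No paired analysis was possible because the labels give the groups no shared replicate numbers.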

Other observations

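Ddi2, the protease that activates NFE2L1, is singled out here after its values without praliciguat replicate 3 were seen. Its expected counts were fractional in every library, such as 371.17 in placebo replicate 1, so its reads are less certain. Its log2 fold change went from 0.52 ± 0.33 to 0.77 ± 0.20, with an unadjusted p of 0.0045 and an adjusted p of 0.250 by edgeR's quasi-likelihood test. Without praliciguat replicate 4 it was 0.31, and limma-voom with all libraries gave 0.42. The inhibitor Psmf1 and the nuclear activator Psme4 also had higher values without praliciguat replicate 3, at 0.22 ± 0.10 and 0.26 ± 0.14.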
